A study of Mus musculus with 2 samples.

Results

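The RNA of the 4 kinases that phosphorylate the translation initiation factor eIF2 alpha, and of 3 genes tied to GCN2 or to the same step of protein synthesis, was described in bone marrow cultures that differentiate into myeloid-derived suppressor cells (MDSCs). The 7 genes were taken by name from the 32285 genes in the count tables: Eif2ak4 (GCN2), Eif2ak1 (HRI), Eif2ak2 (PKR), Eif2ak3 (PERK), Impact, Eif2s1 (eIF2 alpha itself) and Eif4ebp1 (4E-BP1). No cut on their measured values was used, but earlier results of these data were known when they were chosen. Female C57BL/6 mice, 10 weeks old, gave the marrow, and the cultures ran for 4 days. The cytokines GM-CSF and IL-6 were both present at 50 ng/mL, with either 1.5 μM dabrafenib (DAB), a BRAF kinase inhibitor, or the matching volume of its solvent dimethyl sulfoxide (DMSO). Each condition was 1 single-cell library of unique molecular identifiers (UMIs, one per captured RNA molecule) made with the 10x 5′ chemistry. With 1 library per condition there is no replicate error and no test between conditions: all intervals below are 95% counting intervals, and how much 2 cultures of the same kind would differ was not measured. The sources used here do not say how many mice were pooled for a library.

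GCN2, HRI, PKR and PERK are the kinases of the integrated stress response. Each phosphorylates the alpha subunit of eIF2 under its own stimulus: uncharged tRNA and stalled ribosomes for GCN2, heme shortage and mitochondrial stress for HRI, double-stranded RNA for PKR, and unfolded protein in the endoplasmic reticulum for PERK. Phosphorylated eIF2 blocks its own exchange factor, eIF2B, so that most translation slows while the transcription factor ATF4 is made in greater amount and induces amino acid genes. IMPACT competes with GCN2 for its co-activator GCN1 and so restrains GCN2, and 4E-BP1 holds the cap-binding protein eIF4E inactive until mTORC1 phosphorylates it. The activity of these proteins is set mainly by phosphorylation and binding, none of which is read by RNA counts. The study asked how dabrafenib acts through GCN2 in these cells, and the comparison below asks whether the RNA for GCN2, its sister kinases and its partners differed between the cultures and between the cell types in them.

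The DMSO library kept 9027 cells and 92149428 UMIs after filtering. The DAB library was larger, at 10468 cells and 140942061 UMIs, and deeper, with a median of 9526 UMIs in a cell against 7545. Values are therefore given as CPM, the gene's UMIs per 1000000 UMIs of the library or cell class. UMIs from a 5′ library depend on each gene's own start site and carry no length scaling, so levels are compared between cells and libraries and not between genes. A gene is called higher or lower in DAB where the log2 ratio of CPM is at least 0.5 in size and its interval leaves out 0. Of 16345 genes with at least 20 UMIs, 13.6% were called higher and 16.6% lower by this rule, with a median log2 ratio of -0.027. Among the 7988 genes at 10 CPM or more in a library, as all 7 members are, 11.7% were called higher and 12.0% lower. The libraries shared 152 cell barcodes, which 120 of the kept cells of each library carried.

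In mm10 (GRCm38) the GENCODE M21 annotation places Eif2ak4 at chr2:118388618-118475234, Eif2ak1 at chr5:143817788-143904251, Eif2ak3 at chr6:70844515-70905245, Eif2s1 at chr12:78861819-78887010 and Eif4ebp1 at chr8:27260329-27276674, all on the plus strand. Eif2ak2 lies on the minus strand at chr17:78852564-78882573. These genes are protein-coding. Eif2ak1 overlaps Aimp2 and Ankrd61 on the opposite strand. The study's methods name the 5′ chemistry setting used in counting, and such a setting fixes the strand on which reads are assigned to genes.

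RefSeq promoter windows (GRCm38.p6, 250 bases before to 50 after the start) were found for 5 of the 7 genes, and none for Impact or Eif4ebp1. Those of Eif2ak4, Eif2ak2 and Eif2s1 are printed, because Eif2ak4 codes for GCN2, Eif2s1 was the only member called different between the libraries, and Eif2ak2 is a textbook interferon-induced gene. Eif2ak4 had 2 windows. The one printed is chr2:118388367-118388666 on the plus strand, with the 3 GC boxes (GGGCGG, here on the other strand) in capitals. The other, chr2:118388862-118389161 on the plus strand, held no GC box and is not printed. The Eif2ak2 window is chr17:78882523-78882822 on the minus strand, and the Eif2s1 window is chr12:78861822-78862121 on the plus strand. In these last windows the capitals mark the core of an interferon-stimulated response element, a pair of GAAA with any 2 bases between them.
Eif2ak4: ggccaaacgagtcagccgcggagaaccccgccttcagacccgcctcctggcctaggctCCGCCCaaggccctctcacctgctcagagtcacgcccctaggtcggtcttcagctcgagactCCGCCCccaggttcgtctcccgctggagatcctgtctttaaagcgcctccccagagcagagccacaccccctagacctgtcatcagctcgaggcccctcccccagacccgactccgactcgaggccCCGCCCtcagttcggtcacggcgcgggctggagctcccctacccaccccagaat
Eif2ak2: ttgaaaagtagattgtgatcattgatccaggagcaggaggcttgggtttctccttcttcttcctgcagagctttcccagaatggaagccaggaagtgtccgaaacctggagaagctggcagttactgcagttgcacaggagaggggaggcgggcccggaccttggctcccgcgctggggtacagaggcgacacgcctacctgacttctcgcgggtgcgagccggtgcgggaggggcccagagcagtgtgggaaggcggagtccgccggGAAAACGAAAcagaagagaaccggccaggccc
Eif2s1: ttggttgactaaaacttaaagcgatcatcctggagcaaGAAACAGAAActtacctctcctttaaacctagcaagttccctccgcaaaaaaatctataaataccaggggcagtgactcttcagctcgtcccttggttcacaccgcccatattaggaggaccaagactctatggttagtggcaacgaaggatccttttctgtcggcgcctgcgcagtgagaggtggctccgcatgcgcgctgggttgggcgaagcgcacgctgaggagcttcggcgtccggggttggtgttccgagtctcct

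This core, searched on both strands, stands 18 bases after the RefSeq start in Eif2ak2 and 212 bases before it in Eif2s1, and it occurs in 3.44% of the 32851 mouse windows of 300 bases. The TGATGNAA core of the C/EBP-ATF element, through which ATF4 acts, was in 3.97% of all windows and in none of the 6 windows found for these genes. Eif4ebp1 and Impact had no window and were not searched. The GC box was in 35.7% of all windows. The RefSeq start of Eif2s1 lies inside the gene as GENCODE draws it. These matches describe letters in the windows and were not tested as sites.

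All 4 kinases had lower CPM in DAB than in DMSO, with intervals that left out 0, and none of the 4 differences reached the size of the call. Eif2ak4 stood at 26.3 CPM in DMSO (2425 UMIs) and 19.9 CPM in DAB (2804 UMIs), a log2 ratio of -0.40 (interval -0.48 to -0.32). Eif2ak3 went from 21.4 to 15.7 CPM (-0.45, interval -0.54 to -0.36). These were the largest differences among the kinases, and the intervals of the libraries did not overlap for either gene. Eif2ak2 stood at 30.4 CPM in DMSO and 24.1 CPM in DAB (-0.34, interval -0.41 to -0.26). Eif2ak1 showed the smallest difference, 23.2 against 20.6 CPM (-0.17, interval -0.25 to -0.09). Per cell, without scaling, Eif2ak4 was at 0.269 UMIs in DMSO and 0.268 in DAB, since DAB cells gave more UMIs in all. Unscaled, Eif2ak1 (0.237 and 0.278) and Eif2ak2 (0.310 and 0.324) were higher in DAB, and Eif2ak3 (0.219 and 0.211) was lower. At this depth an interval that leaves out 0 is common, since 35.9% of all genes measured had one below 0 and 33.0% had one above it. Among the genes at 10 CPM or more these shares were 43.0% and 43.5%.

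The 3 partners stood on the other side of 0. Eif2s1 was at 78.5 CPM in DMSO (7238 UMIs) and 113 CPM in DAB (15931 UMIs), a log2 ratio of 0.53 (interval 0.48 to 0.57), and was the 1 member of 7 called higher, against 13.6% of all genes. No member was called lower, against 16.6%. With every cluster given the same weight in both libraries, the Eif2s1 ratio was 0.44, under the size of the call. Per cell, without scaling for the greater depth of DAB cells, Eif2s1 went from 0.802 to 1.52 UMIs. Impact, which lies on chromosome 18 and had the fewest UMIs of the 7, had 1066 UMIs in DMSO (11.6 CPM) and 2039 in DAB (14.5 CPM), a log2 ratio of 0.32 (interval 0.22 to 0.43). Eif4ebp1, a gene that ATF4 is known to induce, stood at 359 CPM in DMSO and 446 CPM in DAB (0.31, interval 0.29 to 0.33), or 3.66 and 6.00 UMIs per cell. The intervals of the libraries did not overlap for any of the 3 partners.

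**Figure D1:**
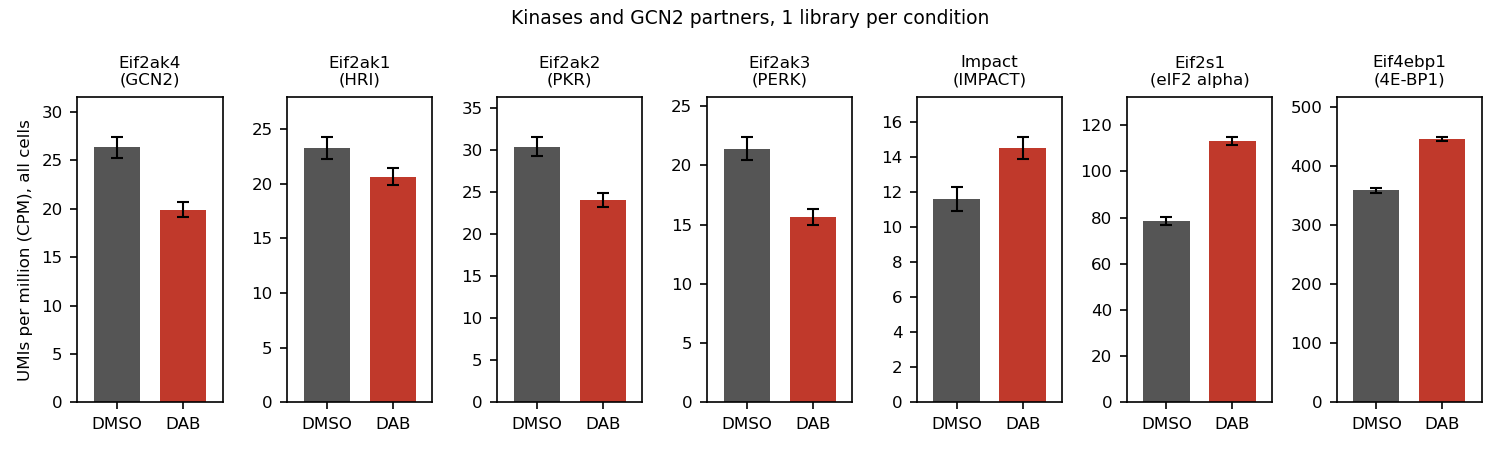
The CPM of the 7 genes over all cells of each library (bars from 0, 1 scale per gene), with exact Poisson 95% intervals as error bars. The 4 kinases are lower in DAB, from 26.3 to 19.9 CPM for Eif2ak4, and Impact, Eif2s1 and Eif4ebp1 are higher, from 78.5 to 113 CPM for Eif2s1.

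The nuclear-retained RNAs Malat1 and Neat1 differed between the libraries in the same direction as the kinases. Malat1 was at 4580 CPM in DMSO and 3232 CPM in DAB (log2 ratio -0.50), and Neat1 at 253 and 116 CPM (-1.13). Over the 21 clusters that held 100 or more cells in both libraries, Malat1 was lower in DAB in 19, Neat1 in 21, and the summed CPM of the 4 kinases in 20. Malat1 was not lower in the macrophage-like (1697 and 1886 CPM) and activated dendritic cell-like clusters (3447 and 3486 CPM), named below. The kinase sums there were lower, at 87.4 and 73.9 CPM and at 85.2 and 79.4 CPM. The cluster with a higher kinase sum in DAB was B cell-like (104 and 119 CPM), with Malat1 at 4120 and 3680 CPM. The part of nuclear RNA in the kinase values was not tested.

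Shares of positive cells depended on depth. Without thinning, 20.9% of DMSO cells and 20.8% of DAB cells had an Eif2ak4 UMI. Each cell was then thinned to 1500 UMIs, and 436 cells of DMSO and 288 of DAB were too shallow for this. The shares after thinning were 4.02% (exact binomial interval 3.61 to 4.45) in DMSO and 2.89% (2.57 to 3.23) in DAB. Eif2ak2 and Eif2ak3 had lower thinned shares in DAB too, 4.41% against 3.43% and 3.55% against 2.73%. Eif2ak1 was found in 3.597% of thinned DMSO cells and 3.595% of thinned DAB cells. Thinned to 3000 UMIs instead, its shares were 7.17% (6.59 to 7.78) and 6.04% (5.56 to 6.56), lower in DAB with separate intervals. Any of the 4 kinases was seen in 14.6% of thinned DMSO cells (13.9 to 15.4) and 12.0% of thinned DAB cells (11.4 to 12.7).

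For the partners the thinned shares stood higher in DAB. They were 1.78% and 2.62% for Impact, 9.42% and 13.6% for Eif2s1, and 41.6% and 47.4% for Eif4ebp1. Unthinned, 40.4% and 54.9% of cells had an Eif2s1 UMI, and 80.5% and 86.7% an Eif4ebp1 UMI. At least 10 Eif4ebp1 UMIs were found in 8.30% of DMSO cells and 21.9% of DAB cells, also unthinned. Thinned to 1500 UMIs, 0 cells of either library reached 10, and thinned to 3000 UMIs, 0 DMSO and 5 DAB cells did. No class here is known to lack these genes, so the level that free RNA gives could not be read from the members. The granule gene Camp, at 4325 and 757 CPM in the intermediate granulocyte-like class, was at 7.44 CPM and 0 in the B cell-like class, whose median depth relative to its own libraries was 0.52. The granulocyte gene S100a8, at 83620 and 69660 CPM in the intermediate granulocyte-like class, was at 271 and 270 CPM in the B cell-like class. The source of this RNA was not tested.

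Cells were grouped into 27 clusters by expression of genes other than the members and the listed pathway genes, and 15 clusters were named from markers. Cell cycle scores, which use some of the listed proliferation genes, were regressed out first. There were 9 named classes that held 100 or more cells in both libraries: granulocyte progenitor-like (Elane, Mpo, Prtn3), intermediate granulocyte-like (Ltf, Ngp, Camp), mature PMN-like (polymorphonuclear, Csf3r, Mmp9), chemokine-high granulocyte-like (Ccl3, Ccl4), immature monocyte-like (Mmp12, Lpl, Spp1), mature monocyte-like (H2-Aa, H2-Ab1), macrophage-like (C1qa, C1qb, in a cluster led by Pf4 and Wfdc17), activated dendritic cell-like (Ccr7, Fscn1, Ccl22) and B cell-like (Ighm, Cd79a). Unnamed clusters held 41.7% of DMSO and 34.0% of DAB cells. Most mature PMN-like cells came from cluster E in DMSO (381 of 658) and from cluster D in DAB (928 of 1681). The largest intermediate granulocyte-like cluster was H in DMSO (729 of 1490) and I in DAB (356 of 899). In classes where no member was called in a direction, 9.75% (chemokine-high granulocyte-like), 9.51% (activated dendritic cell-like) and 1812 of 12107 (mature monocyte-like) of the genes measured were called higher and 7.68% (B cell-like) lower.

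Eif2ak4 was spread thinly over every class, with its lowest level in the intermediate granulocyte-like class of both libraries. In DMSO that class had 13.1 CPM (11.1 to 15.5), and the other 8 classes lay between 25.6 CPM in mature monocyte-like and 32.7 CPM in B cell-like cells. Among those 8 no neighbours in the order differed beyond their counting intervals. In DAB the intermediate granulocyte-like class had 14.6 CPM (12.4 to 17.2), and B cell-like cells were again highest at 24.6 CPM (15.9 to 36.2). In that order the intervals of all neighbours overlapped, as did those of the highest and the lowest class. The intermediate granulocyte-like interval still lay below those of immature monocyte-like (21.7 CPM), granulocyte progenitor-like (20.9 CPM) and chemokine-high granulocyte-like cells (20.2 CPM). The class rich in granule RNA thus stood apart from its neighbour in the DMSO order and not in the DAB order.

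The other kinases had orders of their own. Eif2ak3 was highest in B cell-like cells in both libraries, at 52.1 CPM (36.3 to 72.4) in DMSO and 39.3 CPM (28.1 to 53.5) in DAB. PERK answers to unfolded protein in the endoplasmic reticulum, and its activity in these B cell-like cells was not tested. Their summed unfolded protein response genes were at 1192 CPM in DMSO and 909 CPM in DAB, in DAB the lowest level of the classes compared. The lowest Eif2ak3 levels were 13.9 CPM in macrophage-like cells in DMSO and 12.9 CPM in chemokine-high granulocyte-like cells in DAB. Eif2ak2 ran from 36.6 CPM in granulocyte progenitor-like cells down to 7.44 CPM (2.42 to 17.4) in B cell-like cells in DMSO, and from 32.2 CPM in intermediate granulocyte-like to 17.6 CPM in activated dendritic cell-like cells in DAB. Eif2ak1 spanned 11.9 CPM in B cell-like to 30.4 CPM in mature PMN-like cells in DMSO, and 16.6 to 30.4 CPM in DAB, where the intervals of the extremes overlapped.

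Impact was highest in macrophage-like cells in DMSO (20.8 CPM, 14.6 to 28.9) and in chemokine-high granulocyte-like cells in DAB (23.1 CPM). Its lowest level in DAB was 10.8 CPM in the intermediate granulocyte-like class, and its extremes in DMSO overlapped. Eif2s1 had the same highest and lowest class in both libraries: granulocyte progenitor-like at 102 CPM in DMSO and 151 CPM in DAB, and intermediate granulocyte-like at 35.8 and 68.7 CPM. Its range therefore narrowed from 2.84-fold to 2.20-fold. Eif4ebp1 ran from 157 CPM (142 to 173) in activated dendritic cell-like to 434 CPM (409 to 459) in chemokine-high granulocyte-like cells in DMSO. In DAB its range was 95.2 CPM (80.9 to 111) in activated dendritic cell-like to 567 CPM (550 to 585) in mature PMN-like cells, a 5.96-fold spread in which 7 of 8 neighbouring classes stood apart.

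**Figure D2:**
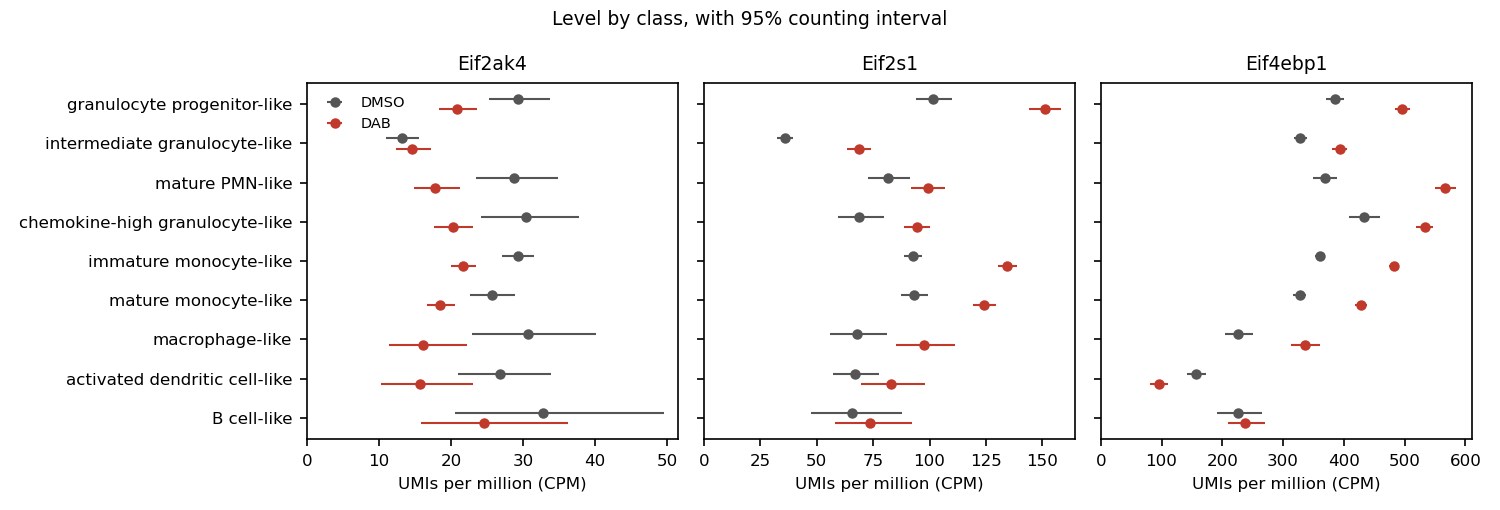
The CPM of Eif2ak4, Eif2s1 and Eif4ebp1 in the 9 classes, DMSO in grey and DAB in red, with exact Poisson 95% intervals as bars. Eif2ak4 is lowest in intermediate granulocyte-like cells of DMSO (13.1 CPM), Eif2s1 is higher in DAB in every class shown, and Eif4ebp1 is lower in DAB in activated dendritic cell-like cells alone (157 to 95.2 CPM).

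The classes themselves differed between the libraries in marker RNA. The summed intermediate granulocyte markers of the intermediate granulocyte-like class were at 56570 CPM in DMSO and 35510 CPM in DAB with all 10 detected in both, and its immature monocyte markers at 408 and 2161 CPM with all 7 detected. In macrophage-like cells the macrophage markers were at 1210 and 321 CPM (6 of 8 detected in both), the mature PMN markers at 1760 and 3339 CPM (9 and 10 of 10) and the granulocyte gene S100a8 at 492 and 7834 CPM. The same class had 11860 and 6875 CPM of immature monocyte markers, beside 11720 and 9572 CPM in immature monocyte-like cells. The name macrophage-like thus does not set it apart from monocytes. The class also had 13730 and 15290 CPM of the 5 chemokine-high granulocyte markers, more than of its own. Mature PMN-like cells had 4580 and 7665 CPM of their own markers and 6461 and 3346 CPM of intermediate granulocyte markers, with all 10 of each list detected. Their chemokine-high granulocyte markers were at 10280 and 12080 CPM. Granulocyte progenitor-like cells had 3158 and 1894 CPM of their own 6 markers, and chemokine-high granulocyte-like cells 16160 and 31790 CPM of their own 5. Mature monocyte-like cells had 2086 and 266 CPM of the 7 activated dendritic cell markers, and immature monocyte-like cells 1583 and 2789 CPM of the 10 mature PMN markers. Activated dendritic cell-like cells had 5754 and 6324 CPM of their own 7 markers and 427 and 133 CPM of granulocyte progenitor markers (4 and 5 of 6 detected). The part of these differences in the ratios below was not tested.

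Within classes, the ratios of the kinases again lay mostly below 0. Eif2ak4 was lower in DAB in 8 of 9 classes and was called lower in 4. It went from 28.8 to 17.8 CPM in mature PMN-like cells (log2 ratio -0.69, interval -1.08 to -0.30), where 9.87% of the genes measured were called lower. In macrophage-like cells 53 DMSO UMIs (30.7 CPM) stood against 37 in DAB (16.2 CPM, -0.92, interval -1.57 to -0.29), with 12.7% of genes called lower, in the class whose macrophage markers went from 1210 to 321 CPM. In activated dendritic cell-like cells the values were 26.9 and 15.8 CPM (-0.77), with 13.1% called lower. These 3 calls held in all clustering alternatives that gave the class. The fourth, in chemokine-high granulocyte-like cells (30.4 to 20.2 CPM, -0.59, against 14.7% of genes called lower), held in 3 of 6. The exception to the direction was the intermediate granulocyte-like class, at 13.1 and 14.6 CPM (0.16, interval -0.19 to 0.50). Of its 3 clusters, H alone was above 0, at 9.80 and 14.5 CPM (0.57, interval -0.0011 to 1.14), while I (-0.22) and R (-0.43) were below it, and H held 729 of 1490 DMSO cells but 267 of 899 DAB cells.

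Eif2ak3 was below 0 in 8 of 9 classes. It was called lower in intermediate granulocyte-like cells, 22.8 to 14.2 CPM (-0.68, interval -0.99 to -0.38), in the main grouping and all 6 alternatives, where 12.1% of genes were called lower. In mature monocyte-like cells it went from 23.4 to 16.2 CPM (-0.53), a call that 5 of 6 alternatives kept, with 19.6% of genes called lower. Eif2ak2 was called lower in granulocyte progenitor-like (36.6 to 25.4 CPM), mature PMN-like (36.2 to 23.6 CPM) and immature monocyte-like cells (32.4 to 22.6 CPM). Between 9.87% and 17.9% of genes were called lower in these classes. The Eif2ak2 calls held in 3 of 6, 1 of 6 and 4 of 5 alternatives.

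In B cell-like cells 2 kinases were called higher, on few UMIs. Each of these 2 genes was above 0 in 3 of 9 classes. Activated dendritic cell-like cells were above 0 for both without a call, at 0.22 for Eif2ak1 and 0.43 for Eif2ak2. Eif2ak2 had 5 UMIs in 137 DMSO cells (7.44 CPM) and 25 in 186 DAB cells (24.6 CPM), a log2 ratio of 1.72 (interval 0.31 to 3.47). Eif2ak1 had 8 and 31 UMIs (11.9 and 30.4 CPM, 1.36, interval 0.20 to 2.69). In this class 16.3% of genes were called higher. The Eif2ak1 call held in all 6 alternatives, and that of Eif2ak2 in 5 of 6, with 0.48 when doublets were kept. Other RNA of the class differed too: the summed B cell markers were at 9830 CPM in DMSO and 6025 CPM in DAB with all 8 detected in both, and Actb at 866 and 2997 CPM. The summed mature PMN markers were at 2229 and 235 CPM, with 7 and 10 of 10 detected. The summed mature monocyte markers were at 6893 and 19590 CPM. Except for Cd209a, these are genes of MHC class II presentation, which B cells also use. The summed macrophage markers were at 127 and 561 CPM (3 and 2 of 8 detected), those of activated dendritic cells at 405 and 850 CPM, and Lyz2 at 10.4 and 80.6 CPM. Their part in the kinase values was not tested.

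Eif2s1 was above 0 in all 9 classes and called higher in 4. The largest ratio was in intermediate granulocyte-like cells, from 381 UMIs (35.8 CPM) to 694 UMIs (68.7 CPM), or 0.94 (interval 0.76 to 1.13), with 22.6% of genes called higher there and the marker differences given above. In the clusters of the class Eif2s1 was at 28.0 and 52.9 CPM in H, 46.2 and 73.2 CPM in I and 37.3 and 83.1 CPM in R. In granulocyte progenitor-like cells it went from 102 to 151 CPM (0.57, interval 0.44 to 0.70), with 15.4% of genes called higher. Both calls held in all 6 alternatives. In immature monocyte-like cells the values were 92.6 and 134 CPM (0.54), and in macrophage-like cells 67.7 and 97.5 CPM (0.53), with 14.1% and 12.0% of genes called higher. These calls held in 1 of 5 and 2 of 4 alternatives, and the immature monocyte-like ratio was 0.08 when the libraries were clustered without alignment. B cell-like cells had the smallest ratio, 65.5 to 73.7 CPM (0.17, interval -0.39 to 0.74).

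Impact was above 0 in all 9 classes, between 0.04 in macrophage-like and 0.78 in B cell-like cells, and was called in none. Its interval left out 0 in intermediate granulocyte-like (7.88 to 10.8 CPM), immature monocyte-like (11.4 to 14.1 CPM) and mature monocyte-like cells (10.1 to 12.8 CPM). In the other 6 classes the counts, from 5 to 262 UMIs per library, could not separate the libraries.

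Eif4ebp1 was called in both directions. It was higher in mature PMN-like cells, from 1347 UMIs (369 CPM) to 3943 UMIs (567 CPM), or 0.62 (interval 0.53 to 0.71), against 14.4% of genes called higher. This call held in 1 of 6 alternatives, which ranged from 0.07 to 0.52. In macrophage-like cells it went from 226 to 337 CPM (0.57, interval 0.40 to 0.75), in all 4 alternatives that gave the class, with 12.0% of genes called higher and S100a8 at 492 and 7834 CPM in the same cells. In activated dendritic cell-like cells it was lower, from 408 UMIs in 152 cells (157 CPM) to 157 UMIs in 100 cells (95.2 CPM), or -0.72 (interval -0.99 to -0.45), with 13.1% of genes called lower. With putative doublets kept, that class held 265 DMSO and 151 DAB cells and the ratio was 0.03 (interval -0.11 to 0.17). Clustered without genes that differed between libraries it was -0.24, and the other 4 alternatives ranged from -0.74 to -0.72. In the other 5 myeloid classes the ratio lay between 0.26 and 0.42. A smaller class of basophil or mast cell-like cells, with 52 DMSO and 80 DAB cells, had 343 and 236 CPM (-0.54).

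**Figure D3:**
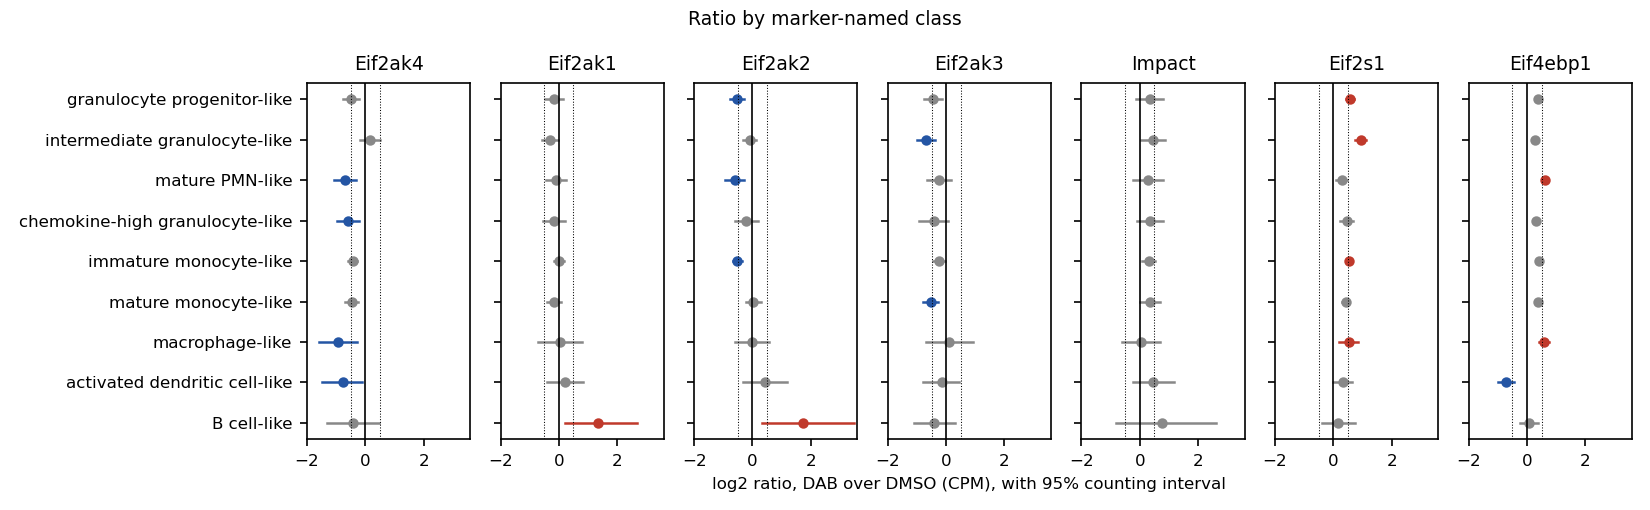
Log2 ratio of CPM, DAB over DMSO, of each member in each of the 9 classes, with exact 95% counting intervals, red where called higher, blue where called lower and grey where not called (dotted lines at the size of the call). Eif2ak4 lies left of 0 in 8 of 9 classes, Impact and Eif2s1 right of 0 in all 9, and Eif4ebp1 is at -0.72 in activated dendritic cell-like cells and 0.62 in mature PMN-like cells.

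The amino acid response, the gene programme downstream of eIF2 alpha phosphorylation, had a median ratio above that of every member. Of its 38 measured genes 32 were called higher and 2 lower, against 13.6% and 16.6% of all genes. Their median log2 ratio was 1.49 against -0.027 over all genes. The list, like the others, was drawn up with earlier results of these data known. Cth, the last enzyme of cysteine synthesis, went from 0.25 to 32.9 CPM, and the amino acid transporter Slc7a3 from 0.098 to 5.12 CPM. Stc2 went from 5.65 to 55.8 CPM. Atf4 itself was at 148 and 262 CPM (0.83), and Trib3, a pseudokinase that ATF4 induces, at 15.5 and 94.1 CPM (2.60). The 2 lower genes were Atf3 (57.3 to 24.2 CPM) and Vegfa (160 to 83.1 CPM). By class, the summed response was called higher in 5 classes, with log2 ratios from 0.63 in immature monocyte-like to 0.96 in granulocyte progenitor-like cells. Such a sum gives most weight to abundant genes. The most abundant of the list was Cebpb, at 1146 and 916 CPM over all cells (-0.32, not called), and its part in the class sums was not tested. The sum was called lower in no class. It was not called in mature PMN-like (0.49) and chemokine-high granulocyte-like cells (0.44). It was at 1451 and 1477 CPM in activated dendritic cell-like cells (0.03) and at 1972 and 1552 CPM in B cell-like cells (-0.35). These 2 classes are also those with the lowest Eif4ebp1 ratios, but the orders differed elsewhere. Eif4ebp1 had its highest ratio in mature PMN-like cells (0.62). It was at 0.37 in granulocyte progenitor-like and 0.26 in intermediate granulocyte-like cells, where the sums had their highest ratios (0.96 and 0.87). A link between Eif4ebp1 and the response was not tested.

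Among 13 genes listed as GCN2 activators 2 were called higher and none lower, with a median of 0.27. Against 13.6% and 16.6% of all genes, the count of higher calls was near the background. The 2 genes were Rwdd1 (186 to 321 CPM, 0.79), which binds the GTPase DRG2, and the chaperone gene Hsp90aa1 (225 to 333 CPM, 0.57). The list name covers binding partners and chaperones too, and whether each product activates or restrains GCN2 was not tested. These 2 calls are therefore not read as a rise in activator RNA. Gcn1, the co-activator for which IMPACT competes, was at 22.7 and 28.7 CPM (0.34). Of 8 PKR regulators, the activator gene Prkra was lower (28.9 to 17.5 CPM, -0.73) and the inhibitor gene Tarbp2 higher (17.8 to 25.3 CPM, 0.51), 1 call in each direction and again near the background. None of 11 PERK and HRI regulators was called, with a median of 0.15. Hspa5, the chaperone that holds PERK inactive, was at 333 and 453 CPM (0.45). None of the 5 phosphatase genes that remove the eIF2 alpha phosphate was called, and the stress-induced subunit Ppp1r15a was at 31.6 and 33.1 CPM (0.07).

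Among 10 genes for eIF2, eIF2B and eIF2-related factors, 2 were called higher and 1 lower, against 13.6% and 16.6% of all genes. Eif2b3, the gamma subunit of eIF2B, went from 10.7 to 16.9 CPM (0.66), Eif5, the GTPase-activating partner of eIF2, from 112 to 176 CPM (0.66), and Eif2a, a separate initiation factor that is no subunit of eIF2, from 49.1 to 33.9 CPM (-0.53). The beta subunit gene Eif2s2 was at 201 and 263 CPM (0.39) and the gamma subunit gene Eif2s3x at 75.8 and 74.8 CPM (-0.02), so that the 3 subunits of eIF2 had ratios of 0.53, 0.39 and -0.02. Of 22 cap-binding and mTORC1 genes 5 were called higher and 1 lower, against the same shares of all genes, with a median of 0.03. Eif4g2 (112 to 204 CPM, 0.87), Sesn2 (28.0 to 44.9 CPM, 0.68) and Sesn3 (4.96 to 7.44 CPM, 0.58) led the higher genes, and Ddit4, an mTORC1 inhibitor, was lower (193 to 128 CPM, -0.59). The paralogs of Eif4ebp1, Eif4ebp2 and Eif4ebp3, had ratios of -0.13 and -0.07, and their target Eif4e 0.07.

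Of 17 interferon-stimulated genes measured, 1 was called higher and 3 lower, with a median of -0.30, near the -0.34 of Eif2ak2. Among all genes 13.6% were called higher and 16.6% lower. Usp18, which damps interferon signalling, was higher (12.2 to 22.4 CPM, 0.88). The lower genes were Ifit3, on 22 DMSO and 14 DAB UMIs (-1.265), Stat2, a transcription factor of that signalling (28.1 to 17.1 CPM, -0.71), and Rsad2 (2.14 to 1.50 CPM, -0.51). By class, the summed interferon list and Eif2ak2 did not always share a sign. In intermediate granulocyte-like and chemokine-high granulocyte-like cells the list was at 0.18 and 0.16 and Eif2ak2 at -0.10 and -0.21, and in mature monocyte-like cells the list was at -0.26 and Eif2ak2 at 0.02. In the B cell-like class, where Eif2ak2 was called higher, the summed interferon list was at 174 and 261 CPM (0.59). In activated dendritic cell-like cells it was at 730 and 1045 CPM (0.52), beside 34 and 29 Eif2ak2 UMIs (13.1 and 17.6 CPM, 0.43, interval -0.34 to 1.19). Of 13 unfolded protein response genes 2 were called higher, Herpud1 (0.73) and Manf (0.67), and none lower, against 13.6% and 16.6% of all genes, with a median of 0.28.

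**Figure D4:**
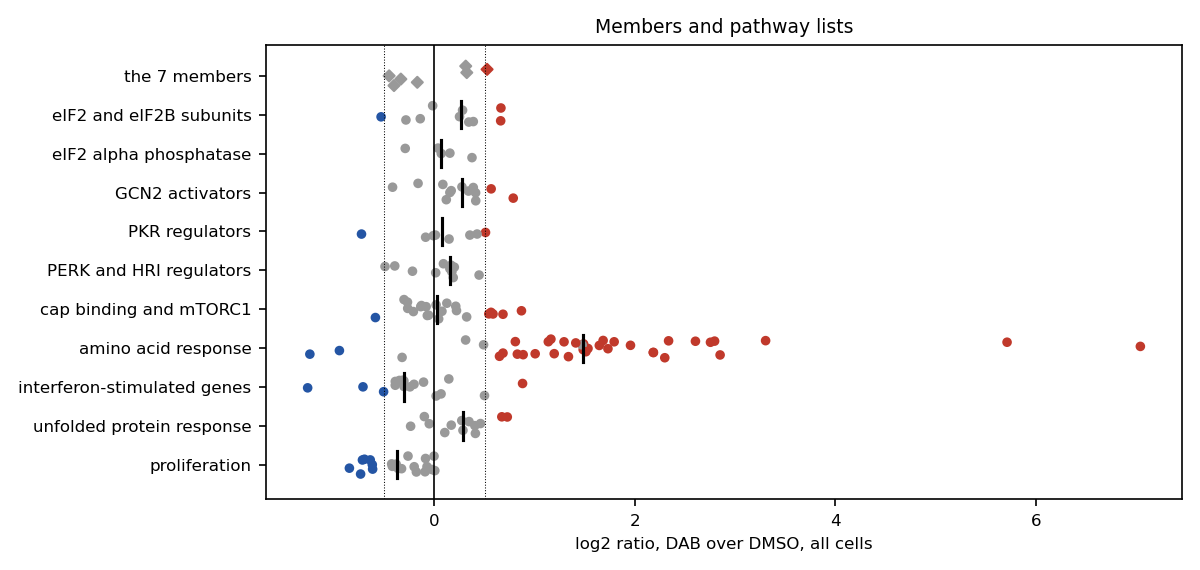
Log2 ratio of CPM, DAB over DMSO, over all cells for the 7 members (diamonds) and for the genes of 10 pathway lists (dots, scattered vertically for legibility), red where called higher, blue where called lower, with the list median as a black bar and dotted lines at the size of the call. The members lie between -0.45 and 0.53, while the amino acid response has a median of 1.49 and reaches 7.04.

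One cluster stood apart in its kinase RNA. Cluster Q, unnamed and led by Gm26917, Gria3, Kcnq5 and Pde4d, held 170 DMSO and 254 DAB cells and had a summed level of the 4 kinases of 356 CPM in DMSO and 260 CPM in DAB. In the other 20 clusters of sufficient size the sum lay between 83.8 and 124 CPM in DMSO and between 51.8 and 119 CPM in DAB. Eif2ak4 was at 110 CPM in cluster Q in DMSO (77 UMIs) and 91.2 CPM in DAB (123 UMIs). Impact was at 47.2 and 74.9 CPM there, while Eif4ebp1 was at 123 and 179 CPM, in DMSO its lowest level of any cluster. Malat1 was at 21810 and 19430 CPM in these cells, mitochondrial RNA at 4.00% and 5.17% of UMIs, and the median depth relative to their own libraries was 0.42. Leaving out cluster Q and cluster K, which is led by Gm15564 and Lars2, kept all 7 ratios inside their intervals.

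**Figure D5:**
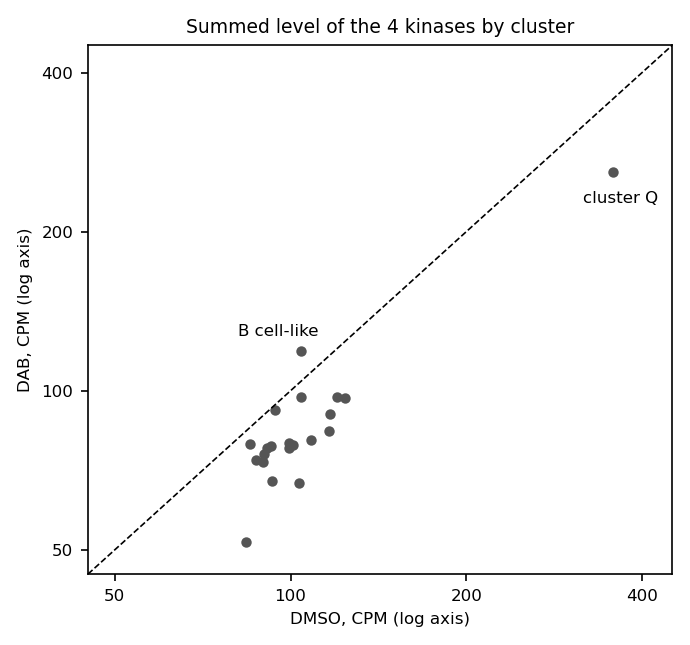
The summed CPM of Eif2ak1, Eif2ak2, Eif2ak3 and Eif2ak4 in DMSO (x axis) and DAB (y axis), both log axes, 1 point for each of 21 clusters that held 100 or more cells in both libraries, with the line of equality dashed. Of the 21 clusters 20 lie under the line, B cell-like cells lie above it, and cluster Q lies apart at 356 and 260 CPM.

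Cells were also sorted within each library by the proliferation UMIs left after thinning to 1500 UMIs, and the CPM of the members was taken from all UMIs of those cells. Cells with at least 3 UMIs of the 22 proliferation genes had more Eif2s1 than cells with none, at 107 against 71.8 CPM in DMSO and 154 against 103 CPM in DAB, and the difference between the libraries was present in both kinds of cell. Impact stood the other way, at 8.79 against 12.0 CPM in DMSO and 10.8 against 15.3 CPM in DAB, and so did Eif4ebp1, at 333 against 365 and 406 against 457 CPM. Among the kinases, Eif2ak4 was at 22.0 against 26.7 CPM in DMSO and 17.5 against 20.3 CPM in DAB. Eif2ak2 was higher in the proliferating cells, at 35.9 against 29.1 and 27.6 against 23.2 CPM. Eif2ak1 and Eif2ak3 were at 23.8 against 23.4 and 22.5 against 20.7 CPM in DMSO, and at 22.9 against 20.1 and 17.5 against 15.2 CPM in DAB. For both genes the intervals overlapped in both libraries. Over all cells, 7 of the 22 proliferation genes were called lower in DAB and none higher, against 16.6% and 13.6% of all genes, with a median of -0.37. The part of proliferating cells in the ratios of the members was not tested beyond these values.

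Across 43 sums of clusters by library, the genes most like each member were found by Pearson correlation of log2(CPM + 10) among 10602 genes. The sums share libraries and depth, so these values describe likeness and carry no test. Eif4ebp1 was most like Pgam1 (0.91), Ldha (0.90) and Eno1 (0.84), which code for glycolytic enzymes, followed by Eno1b, a near copy of Eno1 whose count may share its reads, and Rer1. Eif2s1 was most like Set (0.90), Wdr18 (0.89), Lrrc59 (0.88), Mrps18b (0.88) and Eef1e1 (0.88). Wdr18 serves ribosome assembly and Mrps18b is a mitochondrial ribosomal protein. Without cluster Q (41 sums) Pgam1 and Ldha stayed at the head for Eif4ebp1 (0.89 and 0.86), and Eif4a1 (0.90) and Mrpl12 (0.90) led for Eif2s1.

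The likeness of the kinases depended on cluster Q. With it, Eif2ak4 was most like Pcgf3 (0.92) and R3hdm1 (0.91), Eif2ak3 like Arid4b (0.92), Eif2ak2 like Map2k4 (0.88), Eif2ak1 like Amn1 (0.86) and Impact like Tbc1d5 (0.89). Eif2ak4 and Eif2ak3 correlated at 0.75 with cluster Q and at 0.37 without it, and Eif2ak4 and Eif2ak2 at 0.54 and -0.08. Without it, the lead passed to R3hdm1 for Eif2ak4 (0.82), Atg16l2 for Eif2ak3 (0.89) and Stxbp2 for Eif2ak2 (0.82), which was followed by the neutrophil granule protein gene Hp (0.81). Eif2ak3 and Eif4ebp1 were opposed with and without it, at -0.60 and -0.40.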

How the data were processed

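The deposited files held UMI counts per gene and cell barcode, which the authors made with Cell Ranger 7.0.0 against mm10, per the labels. The sources used here do not say whether intronic reads were counted. The submitters' processing notes also name Seurat 4.3.0 and R 4.1.2. Barcodes over 10% mitochondrial UMIs (55 DMSO, 89 DAB) were removed (none lay over 4 median absolute deviations above the median UMIs or genes), as were 773 DMSO and 1074 DAB putative doublets, scored against simulated doublets at a rate of 0.8% per 1000 barcodes. Cells were clustered on Pearson residuals of 3000 variable genes (40 components, mutual nearest neighbours, leidenalg 0.10.2 at resolution 0.9), without the members and listed genes. Cell cycle scores and the mitochondrial share were regressed out of the residuals, and the score genes included some of the listed proliferation genes. Clusters were named from 15 marker lists by a rule set after the clusters had been seen. The members and gene lists were chosen with earlier results of these data known. Mars1 and Mx1 matched no gene.

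UMIs were summed per library and class (numpy 2.4.6). CPM have exact Poisson intervals, shares exact binomial (Clopper-Pearson) intervals, and ratios exact conditional binomial intervals, all at 95% and for counting error only. The ratio and its call were tested on simulated data. With 1 library per condition no test between conditions was made. Named genes were the 7 members, any listed gene with its value, with the 3 largest called ratios in each direction first, and the 5 genes most like each member. Promoter windows came from RefSeq. Alternatives changed cell filters, doublet removal, scaling, cluster weights, clustering, thinning (1500 or 3000 UMIs) and the minimum count (20 or 200 UMIs).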

Additional observations from a re-analysis of the deposited data

Results flagged for a closer look

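Eif2ak2 was called higher in DAB in B cell-like cells, with a log2 ratio of 1.72, and lower in 3 myeloid classes: granulocyte progenitor-like (-0.53), mature PMN-like (-0.62) and immature monocyte-like cells (-0.52). The B cell-like value rests on 5 DMSO and 25 DAB UMIs. The difference between the classes was not tested.

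Eif4ebp1 was called higher in mature PMN-like (0.62) and macrophage-like cells (0.57) and lower in activated dendritic cell-like cells (-0.72). The mature PMN-like call was lost in 5 of 6 clustering alternatives (0.07 to 0.52 over all 6). The dendritic value was 0.03 when putative doublets were kept. The difference between the classes was not tested.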

How the results depend on the processing

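The signs of the 7 ratios over all cells held under all 7 alternatives. As a mean over cells the log2 ratio was -0.081 for Eif2ak1, -0.55 for Eif2ak3, 0.57 for Eif2s1 and 0.28 for Eif4ebp1, which put Eif2ak3 past the size of the call. With each cluster given the same weight in both libraries, its mean share of cells, it was 0.44 for Eif2s1, under that size, and 0.28 for Eif4ebp1. Scaling by the median of ratios shifted all ratios by 0.028 and gave 0.34 for Eif4ebp1 and 2 interferon-stimulated genes called higher. A total without mitochondrial, ribosomal protein and amino acid response genes also gave 0.34 for Eif4ebp1. With a minimum of 200 UMIs, 1779 genes were called lower in place of 2709, since fewer genes were measured. Without thinning the log2 ratio of the share of positive cells was -0.0026 for Eif2ak4 (-0.48 with it), 0.041 for Eif2ak2 (-0.36), -0.064 for Eif2ak3 (-0.38) and 0.11 for Eif4ebp1 (0.19). Thinned to 3000 UMIs it was -0.25 for Eif2ak1 (-0.00060 at 1500).

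By class, 8 pairs of a member and a class were called higher and 10 lower of 63, where 9.51% to 22.6% and 7.68% to 19.6% of all genes were called, depending on the class. Clustering without genes that differed between libraries, chosen after seeing the data as was leaving out clusters K and Q, gave 5 higher. Of 357 class ratios under the clustering alternatives 320 stayed inside the main interval and 36 moved outside it. The remaining 1 was a called pair that changed sign: Eif4ebp1 in activated dendritic cell-like cells, 0.033 with doublets kept. Sign changes were counted only for pairs called in the main grouping, so ratios of uncalled pairs may also have crossed 0. Where no value is named as the reason, the cause was not tested.

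The 7 ratios over all cells spanned -0.55 to 0.57 across alternatives. No paired analysis was possible because each condition had 1 library, and for the same reason leaving out a replicate was not possible. Depth limits Impact most, at 0.118 and 0.195 UMIs per cell, and then the kinases, at 0.324 or less, and none of these levels can be read in single cells.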
